A study of Homo sapiens with 8 samples.

Results

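The genes described are those of the plasminogen activator system that the deposited table holds under 5 names: the activators PLAU and PLAT, the receptor PLAUR, and the inhibitors SERPINE2 and SERPINB2. They were chosen by gene name, and they are 5 of the 57905 genes in the table. RNA was sequenced from DU145 and PC3, established human prostate cancer cell lines that were first grown from metastases and that grow without androgen. Each line received either a lentivirus that carries TRIB1, a pseudokinase that brings target proteins to the ubiquitin ligase COP1, or an empty lentivirus, so the controls had a lentiviral infection too. This gives 4 groups of 2 libraries each: the control and TRIB1 libraries of DU145 and those of PC3. The promoter that drives TRIB1 and whether the infected cells were pools or clones are not stated in the labels. The labels speak of repeats and do not say that these were separate cultures or infections. The p-values thus rest on a spread between libraries that may be technical.

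Plasminogen is made mainly by the liver and circulates as an inactive precursor. Urokinase, the product of PLAU, and tissue plasminogen activator, the product of PLAT, cleave it to plasmin, a protease that dissolves fibrin, breaks down matrix proteins and activates latent growth factors. Urokinase acts at the cell surface when bound to its receptor, the lipid-anchored product of PLAUR. The serpins PAI-2 (SERPINB2) and protease nexin-1 (SERPINE2) inactivate the activators by forming covalent complexes with them, and the endocytic receptor LRP1 takes these complexes up. Carcinoma cells often make urokinase and its receptor, and the system has long been studied in invasion and metastasis.

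Values are in TPM, a transcript level that is corrected for gene length and brought to a common total for each library. Levels of different genes may therefore be compared within a library. Each column sums to 1000000, so TPM keeps no read totals. Sequencing depth is therefore unknown, and no counting interval can be given. Between 30398 and 31694 genes were above 0 in a library. Differences are on the log2(TPM + 1) scale, which understates the change of genes near or below 1 TPM, and were tested with limma over 25982 genes. The words rose and fell mean an adjusted p below 0.05, and a gene was called when its absolute log2 difference also passed 1. An exact permutation test of 2 libraries against 2 cannot go below p = 0.33, so no such test was used.

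TRIB1 itself, the gene that the TRIB1 virus carries, was at 10.1 and 7.94 TPM in DU145 control and 69.4 and 62.3 in DU145 TRIB1. In PC3 control it was at 45.1 and 50.8 TPM and in PC3 TRIB1 at 241 and 245. Its level followed the labels in all 8 libraries. These values do not separate RNA of the virus from that of the cells' own TRIB1 gene. Protein-coding genes took 86.2% of the TPM of the second DU145 TRIB1 library and 88.7% to 90.6% in the other 7 libraries. The 6 epithelial marker genes summed to between 1292 and 3105 TPM over the 8 libraries. They summed to 1636 to 1717 TPM in PC3 control and to 3062 to 3105 TPM in PC3 TRIB1. The 5 luminal prostate markers read summed to 7.29 to 13.9 TPM, and KLK3 was listed at 0 in 7 libraries. The leukocyte marker PTPRC stayed below 0.47 TPM, and the 7 leukocyte markers summed to 10.1 to 36.9 TPM, most of it from CD68, with 3 of the 7 at or under 1 TPM in every library. CD68, which tumour cells also express, was at 28.9 ± 3.96 TPM in DU145 control and 7.12 ± 0.113 in DU145 TRIB1 (SD, n = 2), and at 19.2 ± 2.31 and 31.5 ± 1.69 TPM in the PC3 groups. The 7 fibroblast markers summed to 42.6 to 71.5 TPM, most of it from COL1A1. Their sum was 59.9 to 71.5 TPM in PC3 control and 42.6 to 46.3 TPM in PC3 TRIB1. In DU145 it was 65.5 to 69.4 TPM in control and 53.6 to 56.4 TPM with TRIB1. The 5 matched endothelial markers summed to 1.17 to 4.09 TPM. Whether the markers that moved with TRIB1 have a part in the differences below was not tested. In RNA from a whole culture, fewer cells that express a gene and less of its RNA per cell cannot be told apart.

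With TRIB1 in PC3, 2 of the 5 genes rose. SERPINB2, the gene of PAI-2, rose 9.23-fold and PLAU, the gene of urokinase, rose 1.81-fold as ratios of mean TPM. PLAT, PLAUR and SERPINE2 did not pass the test there, and in DU145 none of the 5 did. In the control libraries PLAU, PLAT, PLAUR and SERPINE2 were higher in PC3 than in DU145, from 1.39-fold for PLAUR to 34.4-fold for PLAT. Of all genes tested, 18.6% were higher there. SERPINB2 was close to 0 in DU145 and passed the filter through PC3 alone, so it could only be higher there.

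**Figure D1:**
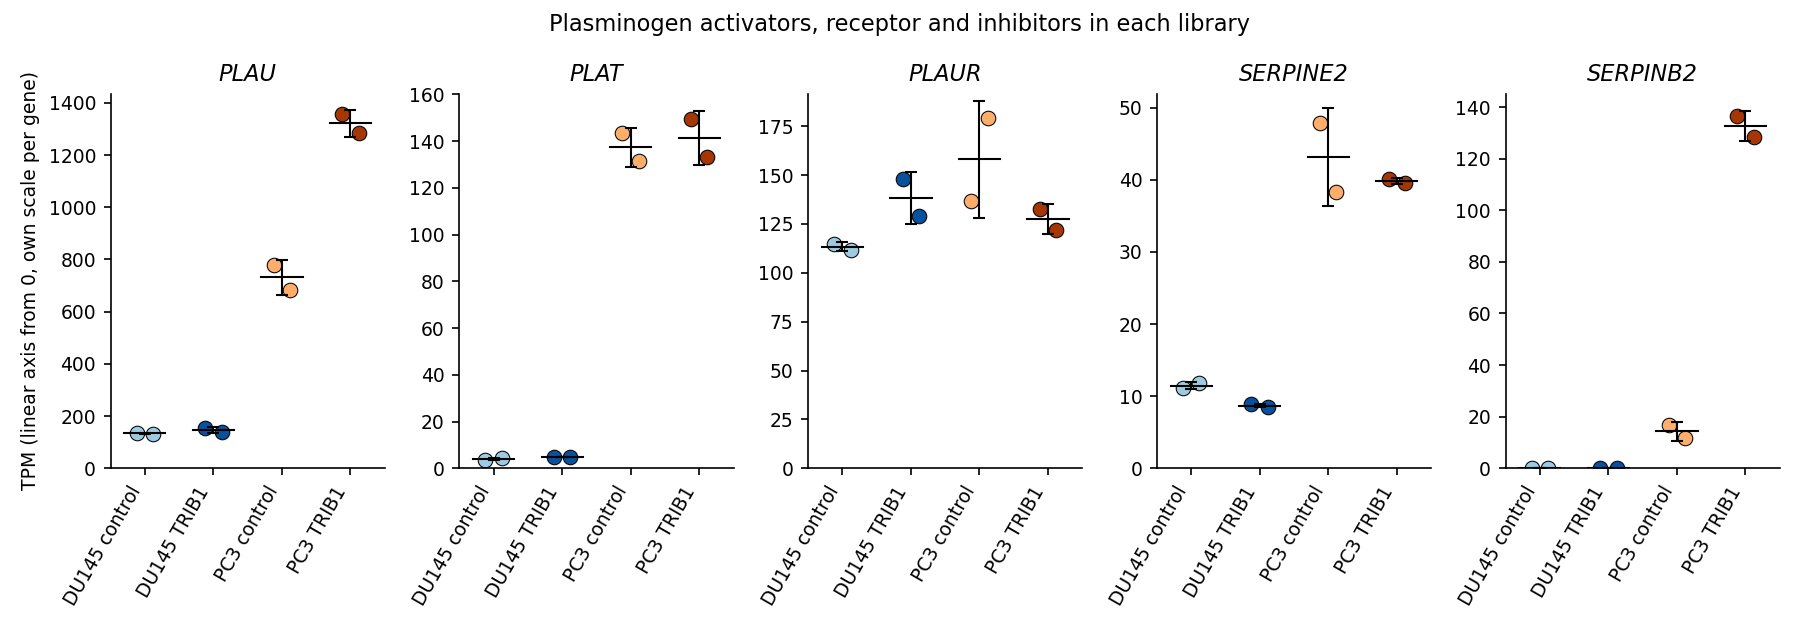
TPM of the 5 genes in each of the 8 libraries (points, 2 per group), on a linear axis from 0 with its own scale for each gene; the horizontal bar is the group mean and the error bar its SD. PLAU at 1286 and 1359 TPM and SERPINB2 at 128 and 137 TPM in PC3 TRIB1 lie above every other library, while the PLAUR points of the 4 groups lie close together.

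PLAU lies on chromosome 10 (GRCh38, 73909177 to 73917497, plus strand; identifier ENSG00000122861). The 2 DU145 control libraries had 136 and 133 TPM of PLAU and the 2 DU145 TRIB1 libraries 154 and 139.5. PC3 control had 780 and 685 TPM, and PC3 TRIB1 1359 and 1286. All 4 PC3 libraries lay far above all 4 DU145 libraries, and within each line the TRIB1 libraries lay above the controls without overlap. Group means were 135 ± 1.99, 147 ± 10.1, 732 ± 67.3 and 1322 ± 51.5 TPM (SD, n = 2) in the same order. By mean level PLAU stood 1087th of 14803 tested protein-coding genes in DU145 control and 930th in DU145 TRIB1. In PC3 it stood 168th and, with TRIB1, 97th.

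With TRIB1, PLAU rose by 0.85 in PC3 (log2 difference, SE 0.08, 95% interval 0.65 to 1.05, adjusted p = 0.00316), higher in both libraries. This is below the fold needed for a call. In DU145 the PLAU difference was 0.12 (SE 0.08, interval -0.08 to 0.32, adjusted p = 0.505). Subtracting the PC3 value from the DU145 value gave -0.73 (SE 0.12, interval -1.02 to -0.45, adjusted p = 0.0195), so the test of the difference between the lines was passed. That test was not passed when any of 5 of the 8 libraries was left out: both DU145 controls, the second DU145 TRIB1 library and both PC3 TRIB1 libraries, with adjusted p up to 0.0807. The rise in PC3 alone kept an adjusted p of at most 0.0294 without any 1 library.

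PLAU shares part of its span with C10orf55, a gene model on the opposite strand. Whether counting used strand is not stated, and reads in the shared stretch cannot be told apart without it. C10orf55 was at 15.0 and 23.4 TPM in PC3 control and at 22.0 and 20.4 TPM in PC3 TRIB1, so its groups overlapped, and its log2 difference of 0.17 was not past the threshold (adjusted p = 0.666). The 3 other nearest tested genes with a symbol, CAMK2G, CAMK2G-AS1 and VCL, had PC3 log2 differences of -0.17, -0.14 and 0.07, none past the threshold. Between the controls C10orf55 was higher in PC3 by 2.22 (adjusted p = 0.000388), close to the 2.43 of PLAU, and how far the 2 genes share reads was not tested. CAMK2G was higher there too, by 1.61 (adjusted p = 2.6e-05), and its difference between the lines passed at 0.46 (adjusted p = 0.0433).

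PLAT, the gene of tissue plasminogen activator, lies on chromosome 8 (GRCh38, 42175233 to 42207724, minus strand; ENSG00000104368). Its level was 3.66 and 4.34 TPM in DU145 control and 4.75 and 4.91 TPM in DU145 TRIB1. The PC3 controls had 143 and 132 TPM of PLAT and the PC3 TRIB1 libraries 150 and 133. The PC3 groups overlapped and the DU145 groups did not. PLAT differed by 0.04 with TRIB1 in PC3 (log2, SE 0.10, interval -0.22 to 0.29, adjusted p = 0.874) and by 0.22 in DU145 (SE 0.10, interval -0.03 to 0.48, adjusted p = 0.342). These intervals leave room for changes up to about their ends, and neither passed the test.

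PLAUR, the gene of the urokinase receptor, lies on chromosome 19 (GRCh38, 43646095 to 43670547, minus strand; ENSG00000011422). DU145 control libraries had 115 and 112 TPM of PLAUR and DU145 TRIB1 libraries 148 and 129. PC3 control libraries had 137 and 179 TPM, the widest pair of any group for this gene, and PC3 TRIB1 libraries 133 and 122. The order of the group means was PC3 control, DU145 TRIB1, PC3 TRIB1, DU145 control, and the first overlapped the second and the second the third. In DU145 the TRIB1 libraries were the higher ones and in PC3 the lower ones.

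Neither PLAUR difference passed the test: 0.28 in DU145 (log2, SE 0.14, interval -0.06 to 0.62, adjusted p = 0.368) and -0.30 in PC3 (SE 0.14, interval -0.64 to 0.04, adjusted p = 0.214). The difference between the lines was 0.58 (SE 0.19, interval 0.10 to 1.06, adjusted p = 0.129). Without the first PC3 control library the PLAUR difference in PC3 was -0.49 (adjusted p = 0.0489) and that between the lines 0.77 (adjusted p = 0.0398), and without the second they were -0.11 and 0.39, neither of which passed. With the TPM of protein-coding genes alone, rescaled to the same total, the difference between the lines was 0.61 (adjusted p = 0.0336).

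SERPINE2 encodes protease nexin-1, a serpin that inhibits thrombin as well as urokinase and tissue plasminogen activator. The gene lies on chromosome 2 (GRCh38, 223975112 to 224039319, minus strand; ENSG00000135919). SERPINE2 was at 11.1 and 11.8 TPM in DU145 control and at 8.87 and 8.51 TPM in DU145 TRIB1. PC3 control had 47.9 and 38.3 TPM and PC3 TRIB1 40.1 and 39.6 TPM. The DU145 groups did not overlap, with the TRIB1 libraries lower, and the PC3 TRIB1 libraries lay between the 2 PC3 controls. The difference was -0.36 in DU145 (log2, SE 0.12, interval -0.65 to -0.08, adjusted p = 0.188) and -0.10 in PC3 (SE 0.12, interval -0.39 to 0.18, adjusted p = 0.628). The unadjusted p of limma for SERPINE2 in DU145 was 0.0211, and no other gene of the 5 was below 0.05 in that line.

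SERPINB2 encodes PAI-2, an inhibitor of urokinase and of the 2-chain form of tissue plasminogen activator, much of which stays inside the cell. The gene lies in a row of clade B serpin genes on chromosome 18 (GRCh38, 63871692 to 63903890, plus strand; ENSG00000197632). SERPINB2 was at 0.0331 and 0.137 TPM in DU145 control and at 0.129 and 0.112 TPM in DU145 TRIB1. PC3 control had 16.9 and 11.8 TPM, and PC3 TRIB1 137 and 128 TPM. The gene was near 0 in all 4 DU145 libraries, and both PC3 TRIB1 libraries stood far above both PC3 controls. It entered the tests through its PC3 levels only, since the filter asked for a mean of 1 TPM or more in some group.

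SERPINB2 rose by 3.14 in PC3 (log2, SE 0.18, interval 2.70 to 3.58, adjusted p = 0.000959), higher in both libraries and the 22nd highest difference of the 25982 genes tested. In DU145 the difference was 0.05 (SE 0.18, interval -0.39 to 0.49, adjusted p = 0.956), between levels too low for a fold to be read. DU145 minus PC3 gave -3.09 (SE 0.25, interval -3.72 to -2.47, adjusted p = 0.00436). SERPINB10, a gene model that overlaps SERPINB2 on the same strand, was at most at 0.647 TPM in any library.

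The stretch before the RefSeq start of SERPINB2 is shown because this gene changed most of the 5. RefSeq promoter windows on GRCh38.p14 were matched for 4 of the 5 genes, PLAU, PLAUR, SERPINE2 and SERPINB2, with 6 windows in all, of which the 250 bases before the gene start were searched on both strands. The motifs were an AP-1 site (TGANTCA), a C/EBP site (TTGCNNAA), a TATA box (TATAAA) and a GC box (GGGCGG), none of which overlapped another in the stretches printed. AP-1 factors bind the first and C/EBP factors, some of which TRIB1 brings to COP1, the second. Bases are counted back from the RefSeq gene start, with -1 the base before it. These starts lie inside the GENCODE spans given above, which take in longer gene models: 16013 bases inside for SERPINB2, 378 for PLAUR and 1955 for the PLAU window printed. The first line is chr18:63887455-63887699 on the plus strand (-250 to -6), with an AP-1 match at -102 and a TATA box at -30 in capitals.
SERPINB2: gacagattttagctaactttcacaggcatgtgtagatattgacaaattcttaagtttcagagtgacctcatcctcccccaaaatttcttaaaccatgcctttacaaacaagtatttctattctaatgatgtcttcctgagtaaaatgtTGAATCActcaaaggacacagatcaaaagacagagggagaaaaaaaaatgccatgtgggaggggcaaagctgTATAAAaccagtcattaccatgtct
The other 2 lines are short stretches around a match: an AP-1 match at -186 of PLAUR (chr19:43670338-43670367, minus strand) and a C/EBP match at -122 of PLAU (chr10:73910999-73911028, plus strand).
PLAUR: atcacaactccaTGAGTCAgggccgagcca
PLAU: ctttgtgagcgTTGCGGAAgcacgcggggt
Among 35116 RefSeq windows searched in the same way, 6.57% hold the AP-1 letters, 9.05% the C/EBP letters, 10.72% TATAAA and 42.64% GGGCGG. PLAUR has a further C/EBP match at -62. The window of PLAU that holds the C/EBP match has 3 GC boxes, at -66, -51 and -40. The other window of PLAU holds no match for any of the motifs. The 2 SERPINE2 windows hold GC boxes, 1 and 2 of them, and none of the other 3 motifs. These matches describe letters, and no binding was measured.

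In DU145, 0 of the 5 genes passed the limma test with TRIB1, against 2.72% of all genes tested, and 1 of the 5 had an unadjusted p below 0.05. In PC3, 2 of the 5 rose and none fell, against 7.67% of all genes that rose and 17.0% that changed either way. With the fold added, 1 of the 5, SERPINB2, was called higher in PC3, against 2.52% of all genes. The difference between the lines passed for 2 of the 5, against 9.37% of all genes, but for SERPINB2, near 0 in DU145, it restates the rise in PC3. The median log2 difference of the 5 was 0.12 in DU145 and 0.04 in PC3, where the median of all genes was -0.04 and -0.01. So few genes allow no reading of these shares as a property of the set.

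**Figure D2:**
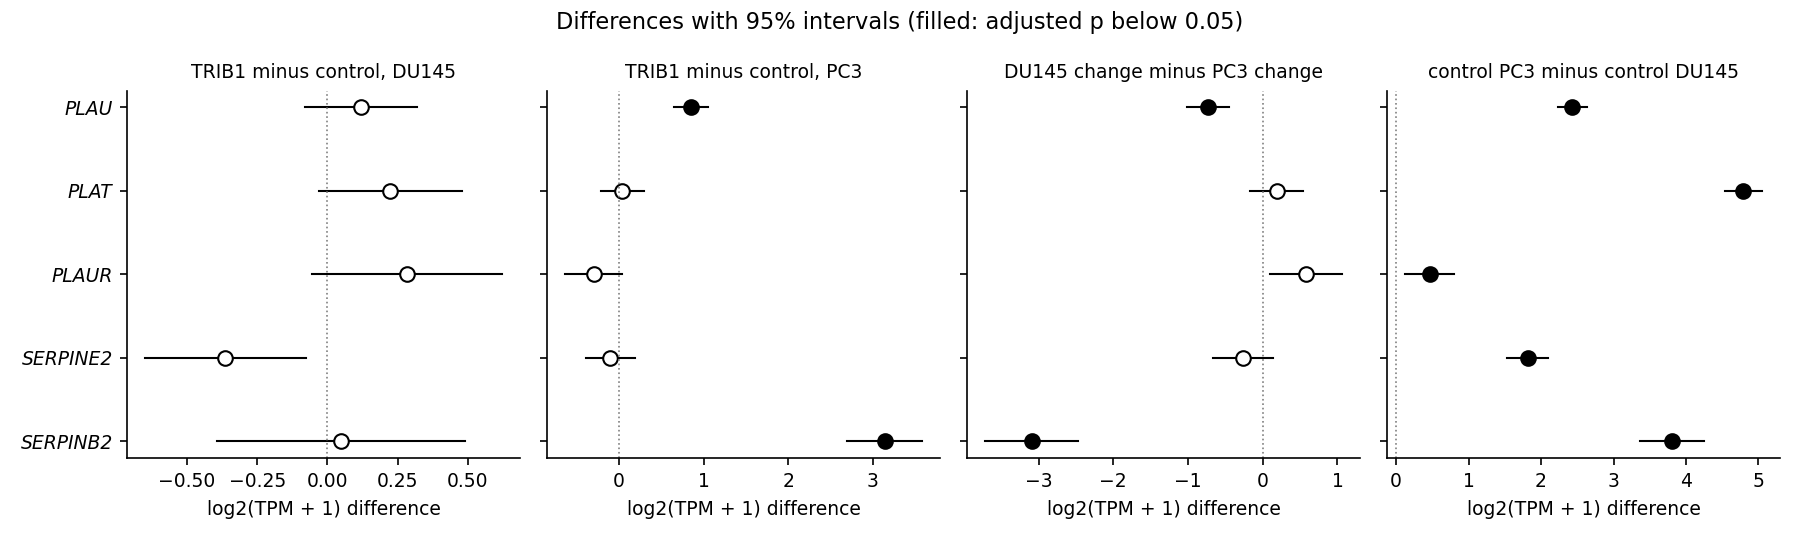
Log2(TPM + 1) differences of the 5 genes in 4 comparisons, with 95% intervals from limma; the panels have their own scales, and filled points have an adjusted p below 0.05. Only PLAU and SERPINB2 are filled in PC3 and in the difference between the lines, none in DU145, and all 5 between the control lines. Between the controls SERPINB2 could only be higher in PC3, since it passed the filter through PC3 alone.

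The control libraries give the baseline of the 2 lines. PLAU, PLAT, PLAUR and SERPINE2 were higher in PC3 control than in DU145 control and passed the test, against 18.6% of all genes higher there and 47.0% different either way. SERPINB2 is left out of this count, since it passed the filter through its PC3 levels and could only be higher there. PLAT differed by 4.79 (log2, SE 0.10, interval 4.54 to 5.05), PLAU by 2.43 (SE 0.08, interval 2.23 to 2.63) and SERPINE2 by 1.81 (SE 0.12, interval 1.53 to 2.10). The ratios of mean TPM, taken without the added 1, were 34.4, 5.43 and 3.76 for PLAT, PLAU and SERPINE2. SERPINB2 differed by 3.81 (SE 0.18, interval 3.36 to 4.25), a value set by its near absence from DU145. PLAUR differed by 0.46 (SE 0.14, interval 0.12 to 0.80, adjusted p = 0.0359), a ratio of 1.39. PLAUR did not pass without any 1 library other than the first PC3 control, with adjusted p up to 0.153, whereas the other 4 genes passed under every alternative run.

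PLAU made up 51.1% of the summed TPM of the 5 genes in DU145 control and PLAUR 43.0%, so that 1.19 PLAU transcripts were counted per PLAUR transcript (means of 2 libraries). In DU145 TRIB1 the shares were 49.1% and 46.3% and the ratio 1.06. PC3 control had 67.4% PLAU, 14.7% PLAUR and 12.7% PLAT, with ratios of PLAU to PLAUR of 5.69 and 3.82 in its 2 libraries. In PC3 TRIB1 the PLAU share was 75.0%, the PLAUR share 7.22%, the PLAT share 8.01% and the SERPINB2 share 7.52%, with PLAU-to-PLAUR ratios of 10.2 and 10.5. The 5 genes summed to 264, 299, 1085 and 1763 TPM in the 4 groups. These shares and ratios are descriptions without a test, and a rescaling of a whole library does not alter them.

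Of the TPM of SERPINE2 and SERPINB2 together, the larger part came from SERPINE2 in PC3 control and from SERPINB2 in PC3 TRIB1. SERPINB2 made up 26.1% and 23.6% of the summed TPM of SERPINE2 and SERPINB2 in the PC3 controls and 77.3% and 76.4% in the PC3 TRIB1 libraries. The sum itself was 64.8 and 50.1 TPM in PC3 control and 177 and 168 TPM in PC3 TRIB1. In DU145, where SERPINE2 made up nearly all of it, the sum was 11.6 ± 0.595 TPM in control and 8.81 ± 0.269 TPM with TRIB1 (SD, n = 2).

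Activator transcripts (PLAU plus PLAT) per transcript of these 2 inhibitors numbered 12.6 and 11.5 in DU145 control and 17.6 and 16.8 in DU145 TRIB1. In PC3 they numbered 14.2 and 16.3 in control and 8.53 and 8.44 with TRIB1. The groups did not overlap in either line, with the TRIB1 libraries the higher ones in DU145 and the lower ones in PC3. This ratio leaves out other inhibitors, was formed after the values were seen and was not tested, and transcript ratios do not give protease activity.

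**Figure D3:**
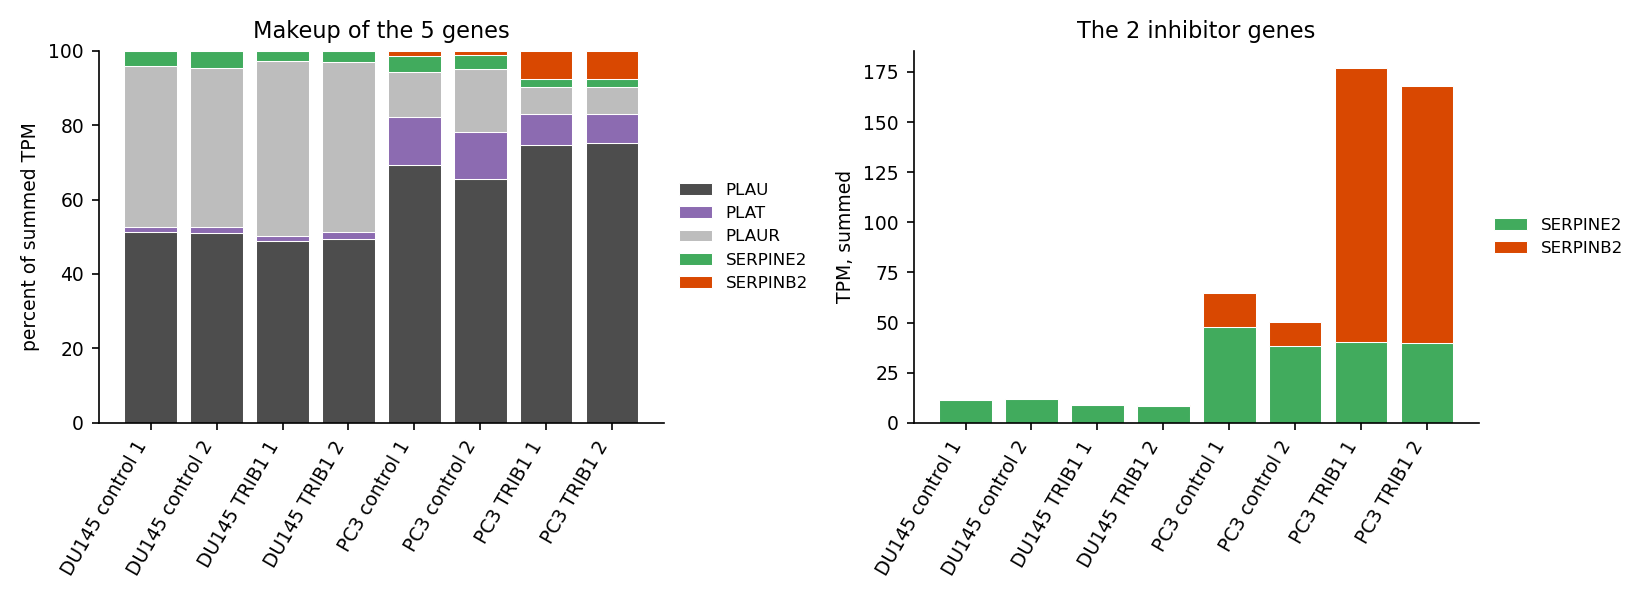
Left, the percent of the summed TPM of the 5 genes that each takes in each library; right, the summed TPM of the 2 inhibitor genes SERPINE2 and SERPINB2 in each library, from 0. SERPINB2 fills 77.3% and 76.4% of the PC3 TRIB1 bars on the right, and 26.1% and 23.6% of the PC3 control bars.

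SERPINB2 stands among other clade B serpin genes, of which 6 of 9 listed ones on chromosome 18 could be tested. With TRIB1 in PC3 none of the 6 rose and 2 fell, where 7.67% of all genes tested rose and 9.33% fell. SERPINB3 went from 29.1 and 25.3 TPM to 14.2 and 13.0 TPM and fell by 0.95 (log2, adjusted p = 0.0094). SERPINB4 went from 7.01 and 7.55 TPM to 3.56 and 2.97 TPM and fell by 0.96 (adjusted p = 0.0169). SERPINB3 and SERPINB4, the squamous cell carcinoma antigens, are near-identical copies between which reads can be shared, so their values are uncertain, and 1 of the 2 passed when the second PC3 TRIB1 library was left out.

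SERPINB5, the gene of maspin, had 36.3 and 29.4 TPM in PC3 control and 78.5 and 75.6 TPM in PC3 TRIB1. Its groups did not overlap, but its difference of 1.21 did not pass the test (adjusted p = 0.0691). SERPINB7 is the nearest tested gene with a symbol before SERPINB2. It had 178 and 149 TPM and then 195 and 184 TPM in PC3, a difference of 0.21 (adjusted p = 0.28). In DU145 none of the 6 rose and 2 fell, where 2.72% of all genes changed either way. The 2 were the nearest tested genes with a symbol on either side of SERPINB2. HMSD, a gene model beside SERPINB8, went from 3.51 and 2.71 TPM to 0 and 0.183 TPM and fell by 1.91 (adjusted p = 0.0235), and SERPINB7 went from 1.55 and 1.52 TPM to 0.607 and 0.443 TPM and fell by 0.73 (adjusted p = 0.0367). Neither passed without any 1 of 6 libraries, all but the PC3 controls. In the controls 5 of the 6 were higher in PC3 than in DU145, against 18.6% of all genes. SERPINB7 was higher by 6.02, SERPINB3 by 4.78 and SERPINB4 by 3.05. In DU145 SERPINB4 was listed at 0 and SERPINB3 at no more than 0.0449 TPM. These 2 passed the filter through PC3 alone, so they could only be higher there. SERPINB8, the next tested serpin past SERPINB2, fell by 1.48 in DU145 (adjusted p = 0.00484), from 11.96 and 9.94 TPM to 3.44 and 3.09 TPM, but did not pass with the 4 DU145 libraries fitted alone (adjusted p = 0.0795). It differed by 0.29 in PC3 (adjusted p = 0.123).

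**Figure D4:**
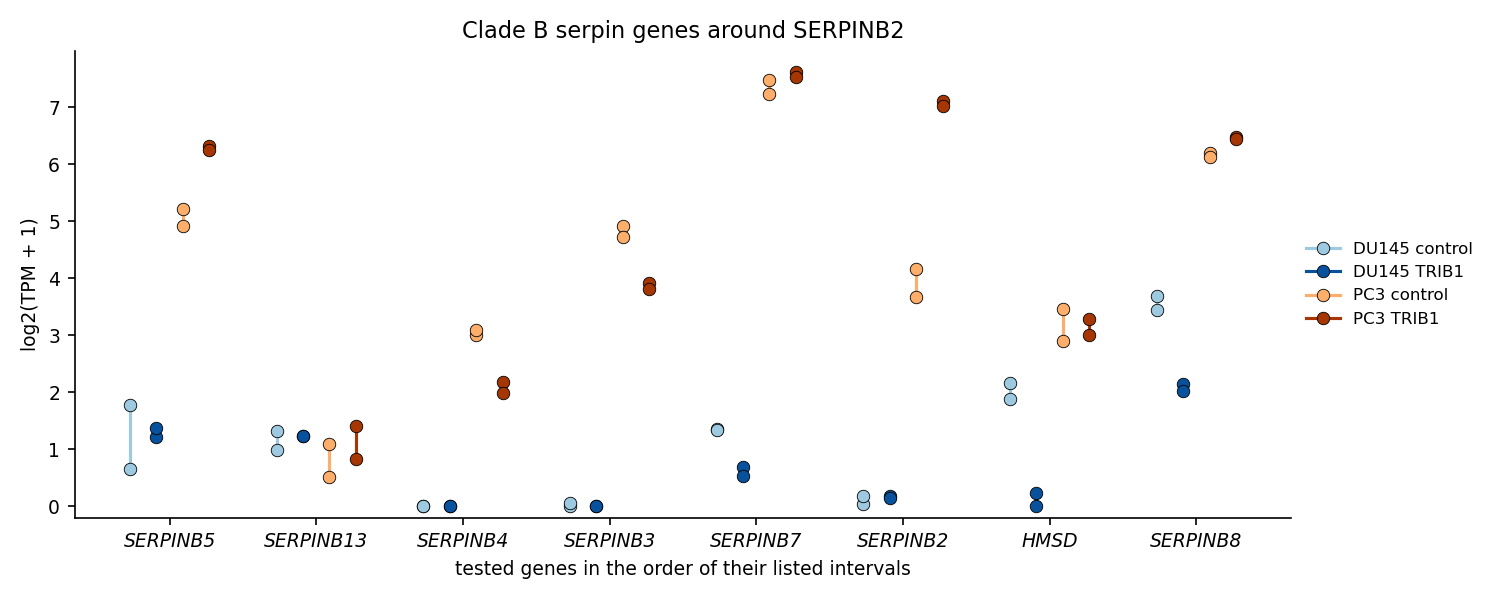
Log2(TPM + 1) of the tested clade B serpin genes and HMSD on chromosome 18 in each library (points, 2 per group), in their order along the chromosome. SERPINB2 shows the widest step from PC3 control to PC3 TRIB1, 3.14, between SERPINB7 at 0.21 and HMSD at -0.04.

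The other parts of the pathway were read from 10 lists of 126 genes, of which 99 could be tested. In PC3 23 of the 99 rose with TRIB1 and 23 fell, where 7.67% of all genes tested rose and 9.33% fell. In DU145 4 rose and 12 fell, where 2.72% of all genes changed either way. The lists were chosen with earlier results known, so these shares stand side by side without a test, and the counts of each list below are to be read beside them. The median difference was -0.06 in PC3 and -0.17 in DU145. Of the 26 pathway genes that were picked for naming and passed in PC3, 18 still passed without any 1 library and under every other alternative. In DU145 1 of 16 did, ELF3, so the DU145 values of the pathway genes carry that limit.

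PLG, the gene of plasminogen, was at 0.467 to 1.12 TPM in the 8 libraries and under the filter. Of 8 tested genes of proteins that bind plasminogen at the cell surface, 1 rose and 3 fell in PC3. KRT8, a keratin that can bind plasminogen outside the cell, rose by 1.54 (adjusted p = 0.000725), while the glycolytic enzymes ENO1 and PGK1, which do so too, fell by 0.85 and 0.92 (adjusted p = 0.00111 and 0.00254). CALR, a chaperone, was the third that fell, by 0.32 (adjusted p = 0.0212). ANXA2, which forms with S100A10 the annexin A2 complex that holds plasminogen and tissue plasminogen activator, was abundant at 994 to 1647 TPM. Its differences of 0.27 in DU145 and 0.15 in PC3 did not pass (adjusted p = 0.0517 and 0.08). Both passed with protein-coding genes alone (adjusted p = 0.0131 and 0.0415) and with median-of-ratios scaling (0.0259 and 0.0255). The DU145 difference also passed with a filter of 5 TPM (0.0365) and with array weights (0.0358). S100A10 rose in DU145 by 0.52 (adjusted p = 0.042), from 598 and 596 TPM to 911 and 806 TPM. It did not pass with any 1 of the 8 libraries left out.

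Of 15 tested clearance receptors and surface partners of the urokinase receptor, 1 rose and 5 fell in PC3. LRP1, which takes up urokinase bound to its inhibitors, went from 60.5 and 71.1 TPM to 19.2 and 18.4 TPM and fell by 1.75 (adjusted p = 0.00109). MRC2, a collagen uptake receptor that joins the complex of urokinase and PLAUR, went from 92.4 and 114 TPM to 21.1 and 10.1 TPM and fell by 2.72 (adjusted p = 0.00506). ITGA3, an integrin chain that binds the urokinase receptor, fell by 0.82 (adjusted p = 0.0021). The integrin chains ITGB3 and ITGA5 fell by 0.69 and 0.37 (adjusted p = 0.0111 and 0.0159), and ITGB5 rose by 0.31 (adjusted p = 0.0331), a rise lost without any 1 of the 4 PC3 libraries. With the second PC3 TRIB1 library left out, 3 of the 15 fell. In DU145 LRP1 differed by -0.29 (adjusted p = 0.241), IGF2R fell by 0.49 (adjusted p = 0.0192) and CAV1 rose by 0.43 (adjusted p = 0.0446).

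**Figure D5:**
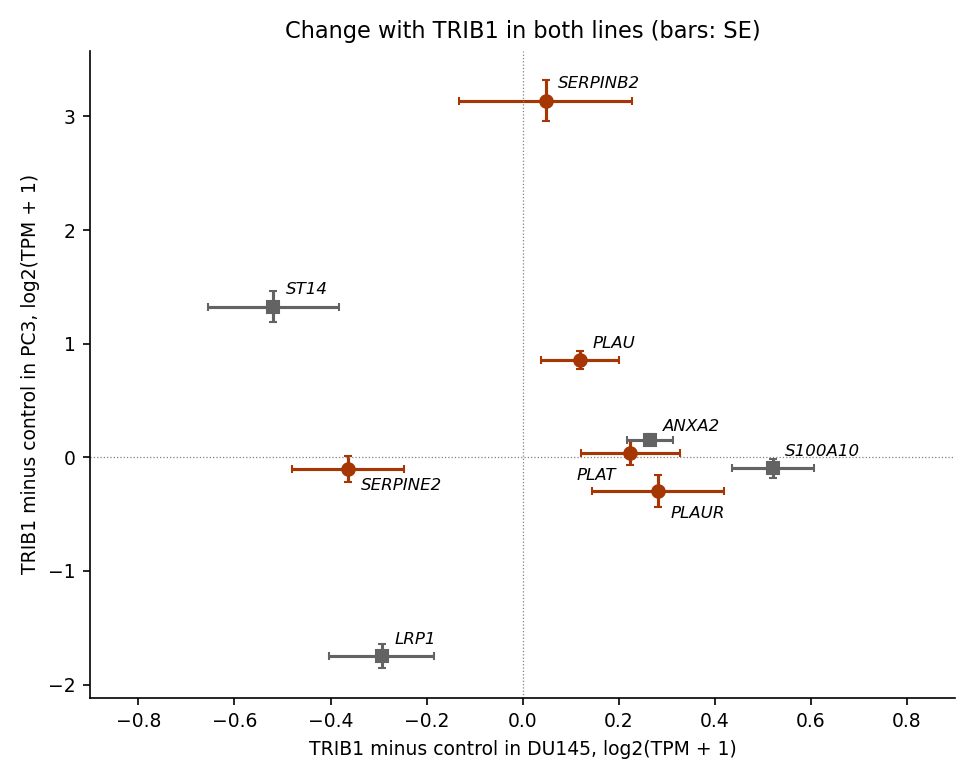
Log2(TPM + 1) change with TRIB1 in DU145 (x axis) and in PC3 (y axis) for the 5 genes (circles) and 4 other genes of the pathway (squares), with bars of 1 SE on each side. SERPINB2 and PLAU lie high on the PC3 axis and near 0 on the DU145 axis, with LRP1 at -1.75 on the PC3 axis.

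Among membrane serine proteases, kallikreins, related serine proteases and Kunitz inhibitors 7 of 14 rose in PC3, against 7.67% of all genes, and none fell. The median difference was 0.71 against -0.01 over all genes. ST14, the gene of matriptase, which activates the urokinase precursor, had 56.1 and 63.9 TPM in PC3 control and 152 and 150 TPM in PC3 TRIB1 and rose by 1.32 (adjusted p = 0.00392). PRSS8, the gene of prostasin, rose by 1.40 (adjusted p = 0.00524) and KLK6, a kallikrein, by 1.17 (adjusted p = 0.00595). The others that rose were the kallikreins KLK5 by 1.64 and KLK10 by 1.28, PRSS22 by 1.11 and TMPRSS2 by 0.65 (adjusted p = 0.00617, 0.0232, 0.0341 and 0.0445). KLK5, at 0.514 and 0.856 TPM in PC3 control, passed the filter through its PC3 TRIB1 level alone. It could thus only rise in PC3, and it is in the counts of this group and of all lists together. When the second PC3 TRIB1 library was left out, 4 of the 14 rose. In DU145 ST14 had 7.70 and 6.83 TPM in control and 5.49 and 4.11 TPM with TRIB1, a difference of -0.52 (adjusted p = 0.128). It passed with protein-coding genes alone (-0.50, adjusted p = 0.0477). In limma over all genes tested, 0 of the 14 passed in DU145. The epithelial marker genes, summed above, were also higher in PC3 TRIB1, and their part in this group was not tested.

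Of 6 other tested inhibitors of plasmin, its activators or related proteases 2 fell in PC3 and none rose. SERPIND1, the gene of the thrombin inhibitor heparin cofactor II, fell by 0.85 (adjusted p = 0.0153) and SERPINB6 by 0.45 (adjusted p = 0.0326). Without the first PC3 control or the second PC3 TRIB1 library neither passed, and SERPINB6 did not pass without any 1 of 6 libraries, all but the DU145 TRIB1 ones. Of 9 genes of coagulation initiation and thrombin receptors 1 rose and 3 fell. TFPI, the inhibitor of tissue factor, fell by 2.06 (adjusted p = 0.00104), F2R, the main thrombin receptor, by 1.06 (adjusted p = 0.00485) and F2RL1, a receptor cut by trypsin and matriptase, by 0.66 (adjusted p = 0.0221). Without any 1 of 5 libraries, both DU145 controls, the first PC3 control and both PC3 TRIB1 libraries, F2RL1 did not pass. The gene that rose was F3, which encodes tissue factor, by 0.80 (adjusted p = 0.0393), and it did not pass without any 1 of 6 libraries, all but the DU145 TRIB1 ones. TFPI also fell in DU145, by 0.79 (adjusted p = 0.0373), but did not pass without any 1 library.

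Of 10 growth factor genes whose products plasmin or urokinase releases or activates, or their receptors, 1 rose and 3 fell in PC3. LTBP1, which holds latent TGF-beta in the matrix, fell by 1.66 (adjusted p = 0.000959), VEGFA by 1.07 (adjusted p = 0.00934) and TGFB1 itself by 0.73 (adjusted p = 0.0294), while FGF2 rose by 0.81 (adjusted p = 0.00685). Without either PC3 TRIB1 library only 1 of them fell. VEGFA also fell in DU145, by 1.41 (adjusted p = 0.0154). Of 9 genes with the LY6 domain that the urokinase receptor carries, 3 rose in PC3: LYPD1 by 1.88 (adjusted p = 0.0055), LYPD6B by 1.39 (adjusted p = 0.0124) and CD59, which guards cells against complement, by 0.42 (adjusted p = 0.00518). LYPD6B did not pass without either PC3 TRIB1 library (adjusted p = 0.0643 and 0.0679).

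AP-1 and ETS factors bind known control elements of PLAU and its receptor gene. Of 20 tested, 8 rose and 5 fell in PC3, but these counts rest on single libraries. The count that rose was 2 without either PC3 TRIB1 library and 4 to 6 without any other. The count that fell was 1 without the second PC3 TRIB1 library and 3 without the first or without the second PC3 control. ATF3 went from 25.2 and 26.3 TPM to 97.8 and 92.2 TPM in PC3 and rose by 1.84 (adjusted p = 0.000761), and ETS2 rose by 0.74 (adjusted p = 0.00318). JUN fell by 0.91 (adjusted p = 0.00592). In DU145 ELF3, an epithelial ETS factor, went from 166 and 142 TPM to 41.8 and 39.2 TPM and fell by 1.90 (adjusted p = 0.00206). Between the controls FOSL1, an AP-1 factor, had 42.2 and 46.0 TPM in DU145 and 539 and 636 TPM in PC3, a difference of 3.70.

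The genes most like each of the 5 were found by the root mean square difference of centred log2(TPM + 1) over the 8 libraries. The search covered 14238 genes with a symbol whose mean reached 5 TPM in some group, and left out clone names. This is a description, since the libraries of a line share its background. PLAU was nearest to KMO (0.083), CCRL2 (0.096) and LINC00944 (0.128), which all had under 11 TPM, so that the added 1 shapes their log2 steps. PLAUR was nearest to SIAH2 (0.073), TLE3 (0.075) and IKBKGP1 (0.084), PLAT to ESRG (0.166), ST6GAL2 (0.179) and CDH2 (0.188), and SERPINE2 to HSPH1 (0.077), PGM1 (0.094) and SOX5 (0.119). SERPINB2 had no near match: SHISA3 (0.424), LAD1 (0.499) and S100P (0.540) came closest. These rose in PC3 by 2.12, 2.13 and 2.42.

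Of the 20 nearest tested neighbours with a symbol, 4 for each of the 5 genes, 2 passed the test in PC3, against 17.0% of all genes. Genes listed under clone names were left out. These were SERPINB3, given above, and DOCK10, beside SERPINE2, which fell by 0.99 (adjusted p = 0.035). The neighbours of PLAT and PLAUR had PC3 differences between -0.79 and 0.96, none of which passed. The lowest was that of RN7SL368P, a gene model inside the span of PLAUR on the same strand. It was at 2.67 and 7.35 TPM in PC3 control and at 1.21 and 3.63 TPM in PC3 TRIB1. How far it shares reads with PLAUR was not tested.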

How the data were processed

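RNA of DU145 and PC3 cells was sequenced in 8 libraries. The authors deposited 1 table of TPM values per gene and library. According to the submitters' processing notes, the tools were HTSeq, edgeR, DESeq and TopHat2 2.0.14, and the build was hg38. Which of them made the TPM values, with which annotation and strand setting, is not given in the sources. Only 365 of the 52338 identifiers found in GENCODE 29 (GRCh38) have the start listed in the table, so gene positions and biotypes were taken from GENCODE 29 by identifier.

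limma 3.58.1, run in R 4.3.3 with a trend of variance on mean, was fitted to log2(TPM + 1) of the 25982 genes whose mean reached 1 TPM in some group, with 4 group means over 8 libraries (4 residual and 1.89 prior degrees of freedom), and p-values were Benjamini-Hochberg adjusted over all of them. In simulated data with planted log2 changes of 1.5 and 3, the fit called 99% to 100% of the changed genes. It also called 19 unchanged genes among 24693 tested in DU145 and 13 among 24690 in PC3. Smaller changes were not simulated. The genes and lists were chosen with earlier results of these data known. Named were the 5 genes, PLG, ANXA2, S100A10, LRP1 and ST14. From each list at most the 3 with the smallest p past the threshold in a contrast were named. Also named were the 2 nearest tested genes with a symbol on each side of each of the 5. Nearness follows the order of the listed intervals, with clone names left out. The other genes of short counts and SERPINB5 were named after their values were seen, as were the ratios of activators to inhibitors. From the lists, 1 inhibitor gene and 1 luminal marker are not reported here and were left out of the list counts and sums. The replicate numbers were not taken as pairs. Alternatives were other pseudocounts, filters and scalings, a fit of the 4 libraries of a contrast alone, no trend, array weights, a replicate block and leaving out each library.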

Additional observations from a re-analysis of the deposited data

Results flagged for a closer look

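The difference between the lines passed the test for the following genes, each given as the log2 change in DU145 less that in PC3. For SERPINB2 it was -3.09 (adjusted p = 0.00436) and for PLAU -0.73 (adjusted p = 0.0195), both with a rise in PC3. SERPINB2 was near 0 in all DU145 libraries and passed the filter through PC3, so its value restates the rise there. ST14 gave -1.84 (adjusted p = 0.00736), with a rise in PC3 and lower TRIB1 libraries in DU145. LRP1 gave 1.46 (adjusted p = 0.00748), with a fall in PC3. S100A10 gave 0.62 (adjusted p = 0.0334), with a rise in DU145.

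With 1 library left out, LRP1 and ST14 still passed (adjusted p up to 0.0344 and 0.0365), as did SERPINB2, though none of them did with the replicate block given below. S100A10 did not pass without 6 of the 8 libraries, all but the second DU145 TRIB1 library and the second PC3 control (up to 0.119). The libraries on which PLAU rests are given above.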

How the results depend on the processing

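The rises of PLAU and SERPINB2 in PC3 passed the test under every alternative run, as did the control differences of PLAU, PLAT, SERPINE2 and SERPINB2. The test of PLAU between the lines was lost with no trend (-0.73, adjusted p = 0.0546) and ranged from -0.83 to -0.64 with 1 library left out. PLAUR between the controls (0.46) was lost with no filter (adjusted p = 0.0582), with the 4 control libraries fitted alone (0.0728) and with no trend (0.0629), and ranged from 0.27 to 0.66 with 1 library left out. PLAUR between the lines was 0.61 with protein-coding genes alone and ranged from 0.39 to 0.77, and PLAUR in PC3 ranged from -0.49 to -0.11. With 1 library left out, uncalled differences crossed 0: PLAT in PC3 -0.044 to 0.12 (-0.023 without the second PC3 control), SERPINE2 in PC3 -0.26 to 0.055 and SERPINB2 in DU145 -0.021 to 0.12. S100A10 between the controls became 0.0027 with median-of-ratios scaling. The 2 genes that passed between the lines became 1 with no trend, and 1 to 3 with 1 library left out. The causes were not tested.

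The replicate numbers were not treated as pairs, since the labels do not tie them and same-numbered libraries did not deviate together (correlations -0.042 in DU145 and -0.01 in PC3). With the replicate block, the differences between the lines stayed at -0.73 for PLAU (adjusted p = 0.0687) and -3.09 for SERPINB2 (adjusted p = 0.0505) but passed for 0 of the 5 genes, those of LRP1 (1.46, adjusted p = 0.0687) and ST14 (-1.84, adjusted p = 0.0527) did not pass either, and PLAUR between the controls stayed at 0.46 (adjusted p = 0.075). Median-of-ratios scaling moved the median of all genes between the controls from -0.178 to 0, so the control differences stand against that shift. TPM keeps no depth, so no limit of detection could be computed for SERPINB2 in DU145.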
